A study of Rattus norvegicus with 12 samples.

Results

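The immediate early transcription factors of the AP-1 group, with Egr1 and Myc, were followed in NRVMs, which are muscle cells taken from the ventricles of newborn rat hearts and grown in culture (neonatal rat ventricular myocytes). The 10 genes Fos, Fosb, Fosl1, Fosl2, Jun, Junb, Jund, Egr1, Atf3 and Myc were taken by symbol from the count and FPKM tables, and all 10 were found among 18469 genes. RNA was sequenced in 12 libraries of NRVMs from Sprague-Dawley rats, 3 in each of 4 groups, which the series describes as independent biological replicates. The cells of siNeg carried a negative control siRNA and no further treatment, and those of siNeg.PE carried the same siRNA and then received phenylephrine (PE). The cells of siSlc25a26 carried an siRNA against Slc25a26, the mitochondrial carrier of S-adenosylmethionine, and those of the last group were labelled siSlc25a26.PE, for that siRNA followed by PE. PE, an agonist of alpha-1 adrenergic receptors that makes these cells hypertrophy, was added 12 h after transfection and left for 36 h. All 4 groups therefore went through transfection, and none was left without an siRNA. A culture of this kind is a primary mixture that keeps some fibroblasts and other cells, and the study used 1 siRNA label against 1 control.

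AP-1 is a dimer of basic leucine zipper proteins. Jun, Junb and Jund can pair with each other or with a member of the Fos family, while Fos, Fosb, Fosl1 and Fosl2 need a Jun partner. Fos and Egr1 are switched on within minutes of a stimulus through serum response factor (SRF) and its ternary complex partners at CArG boxes, and fall back within hours, whereas Fosl1 and Jund last longer. Atf3 is a stress-induced member of the ATF group that pairs with Jun proteins, and Myc is a helix-loop-helix factor that drives growth and ribosome genes with its partner Max. In myocytes, Fos, Jun, Egr1 and Myc are classical early responses to adrenergic agonists, and the libraries here were taken far later than that first wave.

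Levels were read as CPM, a gene's counts scaled to a common library total, after TMM normalization of those totals. A gene is called higher or lower, and is said to have risen or fallen, where edgeR gave a fold change above 1.5 and a Benjamini-Hochberg adjusted p under 0.05 over all genes tested. Library totals ranged from 24770972 to 28709049 counts, at which 3 counts, the level taken as the floor, correspond to 0.0993 to 0.120 CPM. Every one of the 10 genes passed the filter on low counts in every comparison, with 27 counts (Fosb) as the lowest value in any library. In siNeg the targeted gene Slc25a26 lay at 29.3 to 33.2 CPM and in siSlc25a26 at 14.7 to 15.8 CPM. With PE it lay at 86.2 to 113 CPM in siNeg.PE and at 98.8 to 106 CPM in the libraries labelled siSlc25a26.PE. It fell by 1.08 on the log2 scale without PE (edgeR adjusted p = 1.08e-05), but differed by -0.0062 under PE (adjusted p = 0.969), so the label siSlc25a26.PE is not borne out by its targeted gene. A change named here as by the siRNA under PE sets the libraries labelled siSlc25a26.PE against siNeg.PE. One named as by PE in siSlc25a26 sets them against siSlc25a26. Slc25a26 RNA was not lower in siSlc25a26.PE than in siNeg.PE when it was read, and earlier levels were not measured. Whether a lower Slc25a26 level had a part in either change was not tested. Slc25a26 also rose by PE, by 1.69 with siNeg (edgeR adjusted p = 1.79e-05) and by 2.77 with siSlc25a26 (adjusted p = 1.49e-08). These rises differed by 1.06 (edgeR adjusted p = 0.000466). By PE in siSlc25a26, and in the difference between PE effects, PE cannot be told apart from the Slc25a26 level, which was found lower only without PE. Nap1l5, which the study's paper names as the siRNA target in place of Slc25a26, fell by 0.84 without PE (edgeR adjusted p = 0.0397) and by 1.05 under PE (adjusted p = 0.000636). The PE labels were borne out, since the natriuretic peptide gene Nppa rose by 4.63 with siNeg (edgeR adjusted p = 2.22e-06) and by 4.51 with siSlc25a26 (adjusted p = 1.99e-07).

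Other programmes moved with the same groups. The 10 cardiomyocyte markers summed to 20794 to 23411 CPM in siNeg and to 24838 to 25600 CPM in siNeg.PE. They summed to 18619 to 21538 CPM in siSlc25a26 and to 24332 to 25561 CPM where the label was siSlc25a26.PE. The labelled cell type was thus present in all 12 libraries, with higher sums under PE. PE called 3 of these markers higher in siNeg, beside 12.4% of all genes, and 4 in siSlc25a26, beside 10.1%. None was called lower by PE, but Myh6 and Pln had lower mean FPKM with PE than without it. The 10 fibroblast markers summed to 21533 to 23688 CPM in siNeg, to 11712 to 12179 CPM with siNeg.PE, 12509 to 14038 CPM in siSlc25a26, and to 8752 to 9526 CPM where the label was siSlc25a26.PE. Of these 10, 5 were called lower and none higher by PE in siNeg, beside 8.24% of all genes called lower, and 7 and none by siSlc25a26 without PE, beside 7.2%. Under PE the siRNA gave 4 lower and 1 higher of 9 tested, beside 8.1% and 7.71%, and PE in siSlc25a26 gave 1 lower of 9, beside 10.4%. Not every marker was lower in mean, since Dcn (67.5 and 78.9 FPKM), Pdgfra (10.8 and 13.5) and Postn (315 and 339) had higher means in siNeg.PE than in siNeg. Sums over 8 macrophage markers, of which 1 was under the floor throughout, were 103 to 124, 56.1 to 64.1, 55.1 to 64.3 and 38.1 to 44.3 CPM in the same order. Sums over 6 mural cell markers were 790 to 874, 532 to 594, 592 to 653 and 791 to 833 CPM. The higher last sum rested on Cspg4 (26.2 FPKM in siSlc25a26 and 50.5 in the libraries labelled siSlc25a26.PE), while the means of Pdgfrb, Myh11, Notch3 and Kcnj8 were lower there. The 8 endothelial markers stayed at 26.5 to 33.7 CPM in sum. The 19 interferon response genes of the tables summed to 382 to 432 CPM in siNeg, to 284 to 316 CPM with siNeg.PE, 10457 to 11305 CPM in siSlc25a26, and to 6257 to 6923 CPM where the label was siSlc25a26.PE. In these bulk samples, fewer cells of a type and less RNA per cell cannot be told apart. The part of these cell type and interferon shifts in the results that follow was not tested.

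PE in siNeg raised Fos and Fosl1, and lowered none of the 10 genes. These 2 of 10 compare with 12.4% of 13719 genes called higher and 8.24% called lower. A further 5 genes (Jun, Junb, Jund, Egr1 and Atf3) were above siNeg, and Myc below it, at an adjusted p under 0.05 without reaching 1.5-fold. On adjusted p alone this makes 7 higher and 1 lower, beside 25.2% and 24.3% of all genes. The libraries of the 2 groups did not overlap in CPM for 8 of 10 genes, beside 58.6%. Each gene that passed on adjusted p alone went over 0.05 in some alternative fit. The highest adjusted p over those fits was 0.085 for Jun, 0.143 for Junb, 0.095 for Jund, 0.121 for Egr1, 0.134 for Atf3 and 0.110 for Myc. The median log2 change was 0.31 over the 10 genes and 0.00016 over all genes. PE in siSlc25a26 raised 5 of the 10, namely Fos, Fosl1, Jun, Jund and Atf3, beside 10.1% of 13776 genes called higher. None of the 10 was called lower, beside 10.4% of all genes, and the median change was 0.52 against -0.0036 over all genes. On adjusted p alone 6 were higher and 1 (Junb) lower, beside 26.4% and 26% of all genes, and 8 of 10 did not overlap between the groups, beside 61%. On log2(FPKM + 1) the median of all genes moved to -0.125 in this comparison. The higher calls there were 2 (Jun and Jund) and the lower calls 1 (Junb), beside 564 higher and 1497 lower of 13776 genes on that scale.

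The siRNA against Slc25a26 raised Atf3 and Junb without PE and lowered none, beside 8.92% and 7.2% of 13829 genes called higher and lower. The median over the 10 genes was 0.018 on the log2 scale, and over all genes 0.015. Adjusted p alone gave 2 higher and 1 (Egr1) lower, beside 23.3% and 21.7% of all genes, and 3 of 10 did not overlap between the groups, beside 56.9%. In the libraries labelled siSlc25a26.PE against siNeg.PE, Atf3 was the 1 gene called higher and Egr1 the 1 gene called lower, beside 7.71% and 8.1% of 13671 genes. The median was 0.38 over the 10 genes and -0.0028 over all genes, and Fosl1, Jun, Jund and Myc also lay above siNeg.PE by less than 1.5-fold. On adjusted p alone 5 were higher and 1 lower, beside 20.1% of all genes in each direction, and 6 of 10 did not overlap between the groups, beside 52%. The change by PE differed between the 2 siRNAs for 4 genes at an adjusted p under 0.05. The difference was upward for Jun and Myc and downward for Junb and Egr1, beside 5.48% and 5.73% of 14097 genes. Junb alone of the 10 also passed 1.5-fold, beside 2.16% of all genes called higher and 3.34% called lower.

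**Figure D1:**
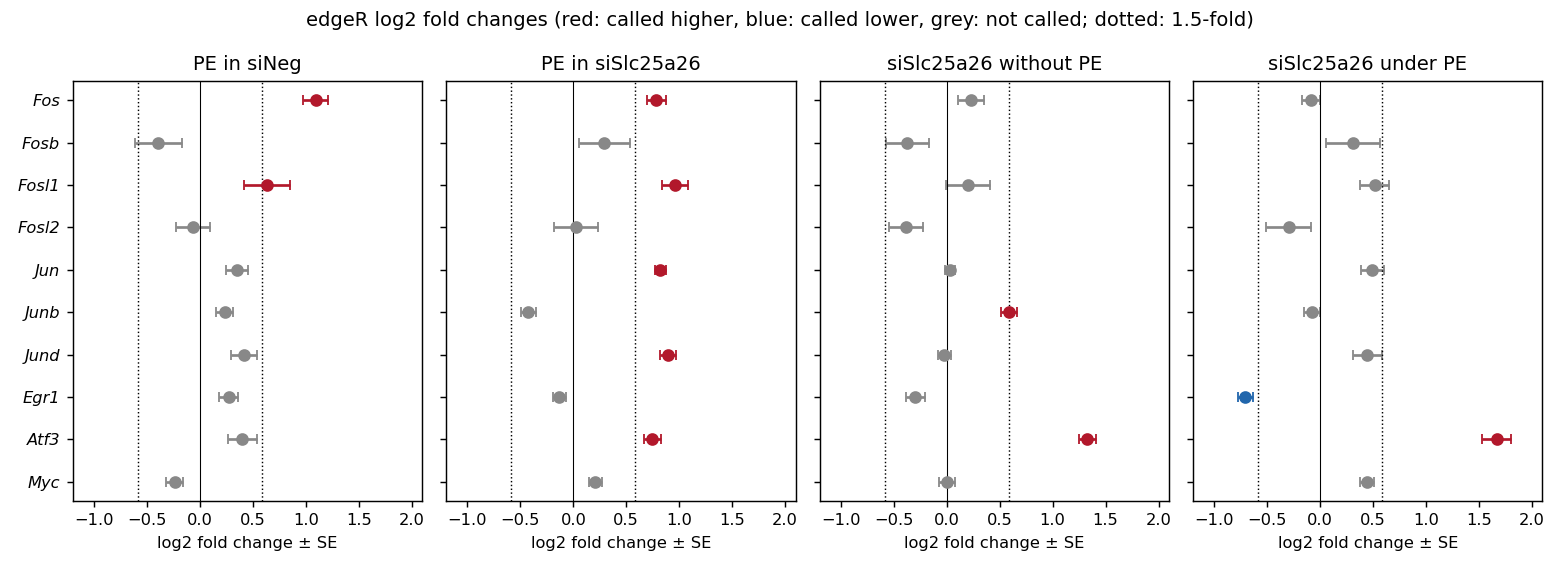
Points give the edgeR log2 fold change of each of the 10 genes and bars its standard error in 4 comparisons of 3 against 3 libraries, with dotted lines at 1.5-fold. Of the points, 5 lie past the right line by PE in siSlc25a26 and 2 by PE in siNeg, while Atf3 has the highest value of the 10 in both siRNA comparisons (1.33 and 1.67).

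Per length, as FPKM, the mean over 12 libraries was 83.2 for Jund, 55.05 for Egr1, 47.5 for Junb, 33.7 for Jun, 13.1 for Myc, 9.23 for Atf3, 7.81 for Fos, 3.82 for Fosl2, 2.32 for Fosl1 and 0.497 for Fosb. The Jun family was thus the larger pool of AP-1 transcripts in every group. Its 3 members summed to 134 ± 8.84 FPKM in siNeg, 165 ± 18.8 in siNeg.PE, 160 ± 1.52 in siSlc25a26 and 199 ± 15.0 in the libraries labelled siSlc25a26.PE (SD, n = 3 each). The 4 Fos family members summed to 11.8 ± 1.66, 17.6 ± 0.982, 11.9 ± 0.278 and 16.4 ± 1.17 FPKM in the same order. The lengths that counts and FPKM imply ran from 899 bases for Fosl2 to 3186 bases for Fosb, and the order between genes rests on them.

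Within the Fos family, Fos made up 43.9% ± 2.41 of the summed FPKM in siNeg and 60.6% ± 1.98 in siNeg.PE (SD, n = 3). The share of Fosl2 was 37.7% ± 3.06 in siNeg and 23.2% ± 2.51 in siNeg.PE. Its size rests on the implied length of 899 bases, the shortest of the 10 genes. In CPM, which takes no account of length, siNeg had a mean of 3.88 for Fosl2 and 8.99 for Fos. Fosl1 had its highest share, 20.2% ± 1.24, in the libraries labelled siSlc25a26.PE. Jund was the leading Jun gene in every group, at 49.7% ± 0.441 of Jun family FPKM in siNeg, 51.7% ± 3.41 in siNeg.PE, 42.7% ± 1.56 in siSlc25a26 and 56.3% ± 1.29 in the libraries labelled siSlc25a26.PE. The share of Junb ran the other way, at 30.0% ± 0.994, 28.0% ± 4.02, 39.3% ± 1.68 and 20.8% ± 0.313 in that order. These shares are descriptions with no test, and a share can move because another member moved.

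**Figure D2:**
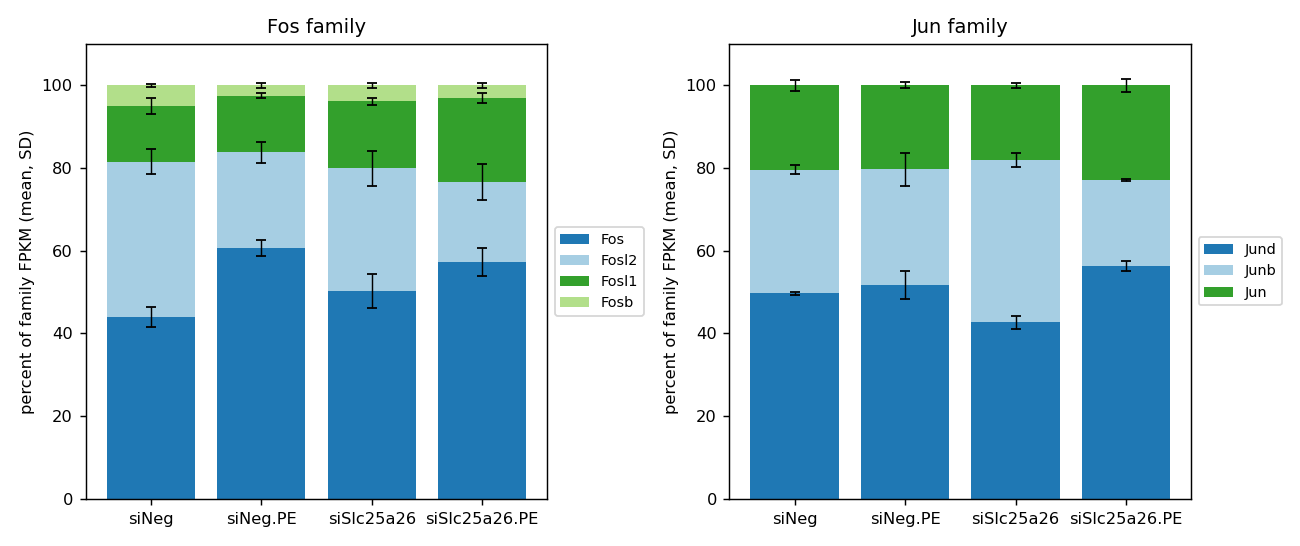
Bars stack the mean percent of summed FPKM taken by each member of the Fos family (left) and the Jun family (right) in 4 groups of 3 libraries, with SD bars at the top of each segment. Fos takes a larger share in both PE groups, and Junb takes 39.3% in siSlc25a26 against 20.8% in the libraries labelled siSlc25a26.PE.

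Fos, the founding member of its family, had 10.5, 7.71 and 8.78 CPM in siNeg and 20.1, 19.2 and 18.8 CPM in siNeg.PE. It had 10.1, 11.3 and 10.7 CPM in siSlc25a26 and 17.8, 20.0 and 17.3 CPM in those labelled siSlc25a26.PE. All 6 PE libraries lay above all 6 libraries without PE. Fos rose 2.13-fold by PE in siNeg (log2 1.09, SE 0.120, edgeR adjusted p = 0.000260) and by a log2 of 0.78 in siSlc25a26 (SE 0.0883, adjusted p = 9.96e-05). The PE effects differed by -0.33 (SE 0.149, adjusted p = 0.182). The siRNA comparisons gave 0.23 without PE (SE 0.123, edgeR adjusted p = 0.159) and -0.086 under PE (SE 0.0875, adjusted p = 0.467), so the level of Fos separated by PE and not, at this spread, by siRNA. On log2(FPKM + 1) the PE change in siSlc25a26 was 0.58, just under 1.5-fold.

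Fosl1, which encodes Fra-1 and is itself a target of AP-1, had 3.34, 1.98 and 2.14 CPM in siNeg and 4.30, 3.89 and 3.51 CPM in siNeg.PE. It had 2.83, 2.98 and 2.92 CPM in siSlc25a26 and 5.58, 6.001 and 5.30 CPM in those labelled siSlc25a26.PE, the highest of the 4 groups. Replicate 1 of siNeg stood closer to the siNeg.PE libraries than to its own group. Fosl1 rose by PE in siNeg by a log2 of 0.63 (SE 0.216, edgeR adjusted p = 0.0393), a call that was lost in 5 of the 6 fits that left out a library, all except the one without siNeg replicate 1 (0.92 there). In siSlc25a26 the rise was 0.96 (SE 0.125, edgeR adjusted p = 0.000239), and the PE effects differed by 0.30 (SE 0.246, adjusted p = 0.467). Under PE the siRNA groups differed by 0.52 (SE 0.135, edgeR adjusted p = 0.0147), which is under 1.5-fold.

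Fosb and Fosl2, the remaining Fos family genes, gave no call in any of the 5 tests. Fosb ranged from 1.07 to 2.03 CPM over the 12 libraries, with the lowest group mean, 1.38 ± 0.285 CPM, in siNeg.PE and the highest, 1.80 ± 0.172 CPM, in siNeg (SD, n = 3). Fosl2, which encodes Fra-2, ranged from 2.497 to 4.32 CPM, with group means of 3.03 ± 0.500 CPM in siSlc25a26 to 3.88 ± 0.336 CPM in siNeg. No neighbours in the order of group means differed for either gene. The log2 change by PE in siNeg was -0.39 for Fosb (SE 0.220, edgeR adjusted p = 0.168) and -0.067 for Fosl2 (SE 0.160, adjusted p = 0.750). With standard errors of 0.160 to 0.324 over the 5 tests, changes near 1.5-fold in these weakly expressed genes could be missed at this depth.

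Jun, the strongest activator of its family, had 80.2, 78.04 and 81.5 CPM in siNeg and 86.4, 80.9 and 82.2 CPM in siSlc25a26, which overlapped. It had 110, 115 and 84.0 CPM in siNeg.PE and 145, 152 and 141 CPM in those labelled siSlc25a26.PE, which did not overlap with any other group. Replicate 3 of siNeg.PE lay well below its 2 partners, for Jund and Atf3 as well. Jun rose by PE in siSlc25a26 by a log2 of 0.82 (SE 0.0510, edgeR adjusted p = 2.67e-06). In siNeg the change was 0.35 (SE 0.103, adjusted p = 0.0222), under 1.5-fold. The PE effects differed by 0.45 (SE 0.129, edgeR adjusted p = 0.0426), and without siNeg.PE replicate 3 by 0.33 (adjusted p = 0.0152). Leaving out 1 library at a time took the adjusted p of this difference over 0.05 in 9 of 12 fits, up to 0.104.

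Jund, the most abundant Jun transcript, had 113, 99.6 and 99.6 CPM in siNeg and 104, 100.5 and 108 CPM in siSlc25a26. It had 156, 155 and 110 CPM in siNeg.PE and 208, 199 and 169 CPM in those labelled siSlc25a26.PE, all above the other libraries. Jund rose by PE in siSlc25a26 by a log2 of 0.89 (SE 0.0755, edgeR adjusted p = 1.77e-05), while PE in siNeg gave 0.41 (SE 0.125, adjusted p = 0.0248). The difference between these effects, 0.45, did not pass (SE 0.167, edgeR adjusted p = 0.104). Under PE the siRNA groups differed by 0.44 (SE 0.137, adjusted p = 0.0291), and without PE by -0.021 (SE 0.0630, adjusted p = 0.807). Jund counts were not whole in any of the 12 libraries, nor were those of Fosl1, while those of Atf3 were not whole in 5 libraries and those of Fos in 3. Reads divided between genes could give such counts, but the counting program is not given and this was not checked. The values of these genes carry that uncertainty.

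Junb, the family member that can also hold back Jun, had 74.6, 62.4 and 63.5 CPM in siNeg and 76.3, 82.1 and 79.3 CPM in siNeg.PE. It had 102, 107 and 98.2 CPM in siSlc25a26, above every other library, and 81.8, 77.2 and 67.8 CPM in those labelled siSlc25a26.PE. Junb was thus the 1 Jun gene with its highest level in siSlc25a26 without PE. Junb rose by the siRNA without PE by a log2 of 0.59, 1.503-fold and so at the edge of the threshold (SE 0.0736, edgeR adjusted p = 0.000285). With DESeq2 size factors the fold was under 1.5 (log2 0.58), and the call was lost without siNeg replicate 2, siNeg replicate 3 or siSlc25a26 replicate 2. PE gave 0.23 in siNeg (SE 0.0808, edgeR adjusted p = 0.0419) and -0.43 in siSlc25a26 (SE 0.0708, adjusted p = 0.000971). The PE effects differed by -0.68 (SE 0.113, edgeR adjusted p = 0.00272), a call in the main test that held in each of the 12 fits without 1 library. Under PE the siRNA groups differed by -0.078 (SE 0.0751, adjusted p = 0.441). On log2(FPKM + 1) the PE change of Junb in siSlc25a26 was -0.59, which passed as a fall.

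Jund and Junb ran in opposite directions by PE in siSlc25a26, and their RefSeq promoters are shown for that reason. Each sequence is the 250 bases before the annotated start, 5′ to 3′ on the gene's strand, in build GRCr8. Jund lies at chr16:18769772-18770021 on the minus strand and Junb at chr19:40080876-40081125 on the plus strand. Capitals mark matches, on either strand, to the CRE (TGACGTCA), the TRE (TGANTCA), the CArG box, the E-box (CACGTG), the Egr site (GCGNGGGCG) or the ISRE core (GAAA, any 2 bases, GAAA).
Jund: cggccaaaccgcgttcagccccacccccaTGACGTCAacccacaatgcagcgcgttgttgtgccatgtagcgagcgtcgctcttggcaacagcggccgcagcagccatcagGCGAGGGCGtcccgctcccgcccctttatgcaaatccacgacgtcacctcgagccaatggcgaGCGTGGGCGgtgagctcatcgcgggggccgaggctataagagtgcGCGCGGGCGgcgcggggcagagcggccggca
Junb: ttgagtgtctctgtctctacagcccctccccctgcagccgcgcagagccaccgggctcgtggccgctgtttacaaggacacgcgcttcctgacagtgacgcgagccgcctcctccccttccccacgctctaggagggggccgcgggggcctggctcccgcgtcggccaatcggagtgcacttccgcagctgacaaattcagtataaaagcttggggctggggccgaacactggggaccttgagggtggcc
The Jund stretch held 1 CRE, the ATF and Jun binding letters, from -221 to -214, and 3 Egr sites that began at -139, -76 and -31, with no overlap among the 4. The Junb stretch held no match to any of the 6 motifs. Over 27457 promoters of that length, 1.70% held a CRE, 6.36% a TRE, 1.501% a CArG box, 5.79% an E-box, 4.53% an Egr site and 3.29% an ISRE core. Of the 10 genes, 6 had a promoter entry. Among the other 4 with an entry, Egr1 had 2 CArG boxes, the SRF binding letters, from -105 to -96 and from -83 to -74. Fosl2 had 1 Egr site, Fosb 1 ISRE core and Fosl1 no match. Fos, Jun, Atf3 and Myc were not searched. A match describes letters and not a bound site.

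Egr1, a zinc finger factor, had 94.8, 81.9 and 75.5 CPM in siNeg and 103, 108 and 96.3 CPM in siNeg.PE. It had 69.3, 74.5 and 65.4 CPM in siSlc25a26 and 60.9, 64.1 and 64.3 CPM in those labelled siSlc25a26.PE. The last group did not overlap with any other, and had the lowest values of the 4. In the libraries labelled siSlc25a26.PE, whose Slc25a26 level was not lowered, Egr1 fell by 0.71 on the log2 scale against siNeg.PE (SE 0.0680, edgeR adjusted p = 7.60e-05), and the call held in each of the 6 fits without 1 library. Without PE the change was -0.30 (SE 0.0873, edgeR adjusted p = 0.0223). PE gave 0.27 in siNeg (SE 0.0888, adjusted p = 0.0344) and -0.13 in siSlc25a26 (SE 0.0631, adjusted p = 0.106). These PE effects differed by -0.43 (SE 0.114, edgeR adjusted p = 0.0309), with an adjusted p of 0.00829 to 0.102 when 1 library was left out.

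Atf3 spanned the widest range of the 10, 4.26-fold between its lowest and highest group means. It had 6.997, 7.71 and 7.60 CPM in siNeg and 11.03, 10.8 and 7.90 CPM in siNeg.PE. It had 19.6, 18.6 and 18.9 CPM in siSlc25a26 and 29.2, 34.7 and 31.2 CPM in those labelled siSlc25a26.PE. The 4 groups did not overlap, and each step in that order passed at an adjusted p under 0.05. The first step was slight, since siNeg.PE replicate 3 (7.90 CPM) lay just above the highest siNeg library (7.71 CPM). Its change was under 1.5-fold, with an adjusted p of up to 0.134 over the alternative fits. Atf3 rose by siSlc25a26 without PE by a log2 of 1.33 (SE 0.0843, edgeR adjusted p = 3.76e-06) and was higher by 1.67 in the libraries labelled siSlc25a26.PE, whose Slc25a26 level was not lowered, than in siNeg.PE (SE 0.135, adjusted p = 2.62e-05). PE raised it in siSlc25a26 by 0.75 (SE 0.0782, edgeR adjusted p = 6.37e-05) and gave 0.40 in siNeg (SE 0.137, adjusted p = 0.0402). The difference between the PE effects, 0.32, did not pass (SE 0.161, edgeR adjusted p = 0.224). The rise by PE in siSlc25a26 was 0.53 on log2(FPKM + 1), under 1.5-fold. Where Atf3 rose by siRNA, 18 interferon genes were called higher. These were of 18 tested without PE (beside 8.92% of all genes) and of 19 under PE (beside 7.71%). By PE in siSlc25a26, where Atf3 also rose, 12 of 19 interferon genes were called lower and 1 higher, beside 10.4% and 10.1% of all genes. A link between Atf3 and these genes was not tested.

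Myc had 27.8, 29.2 and 32.4 CPM in siNeg, 24.7, 27.3 and 24.6 CPM in siNeg.PE and 30.6, 32.0 and 28.8 CPM in siSlc25a26. It had 34.7, 35.6 and 34.4 CPM in those labelled siSlc25a26.PE, above every other library in CPM. In FPKM the libraries labelled siSlc25a26.PE, at 13.81 to 14.6, overlapped with siSlc25a26 (12.94 to 14.74) and siNeg (12.44 to 14.51). The separation of Myc from these groups therefore held in TMM-normalized CPM and not in FPKM. Myc gave no call at 1.5-fold, its group means spanning 1.37-fold. PE gave -0.24 in siNeg (SE 0.0799, edgeR adjusted p = 0.0381) and 0.21 in siSlc25a26 (SE 0.0632, adjusted p = 0.0220). Over the alternative fits the change in siSlc25a26 was 0.028 to 0.24, with an adjusted p of up to 0.728. The PE effects differed by 0.42 (SE 0.101, edgeR adjusted p = 0.0198), with an adjusted p of 0.0158 to 0.0572 when 1 library was left out. Under PE the siRNA groups differed by 0.44 (SE 0.0705, edgeR adjusted p = 0.00126).

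**Figure D3:**
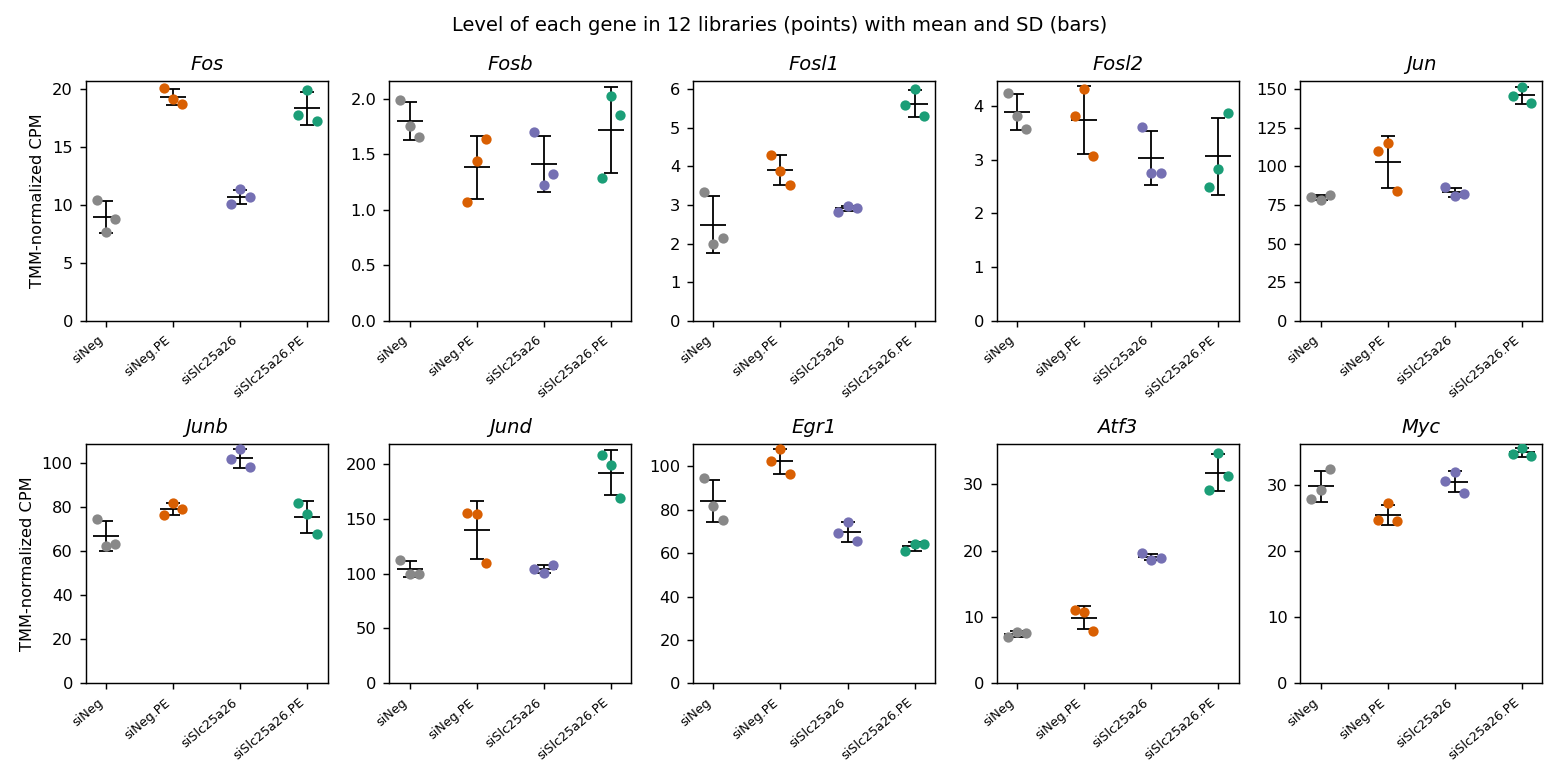
Each panel shows 1 of the 10 genes as TMM-normalized CPM, with 3 libraries per group as points and the mean and SD as bars, on axes that start at 0. Fos separates by PE, and Atf3 steps up in mean over the 4 groups. Junb peaks in siSlc25a26 at 98.2 to 107 CPM, and Egr1 is lowest in the libraries labelled siSlc25a26.PE.

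**Figure D4:**
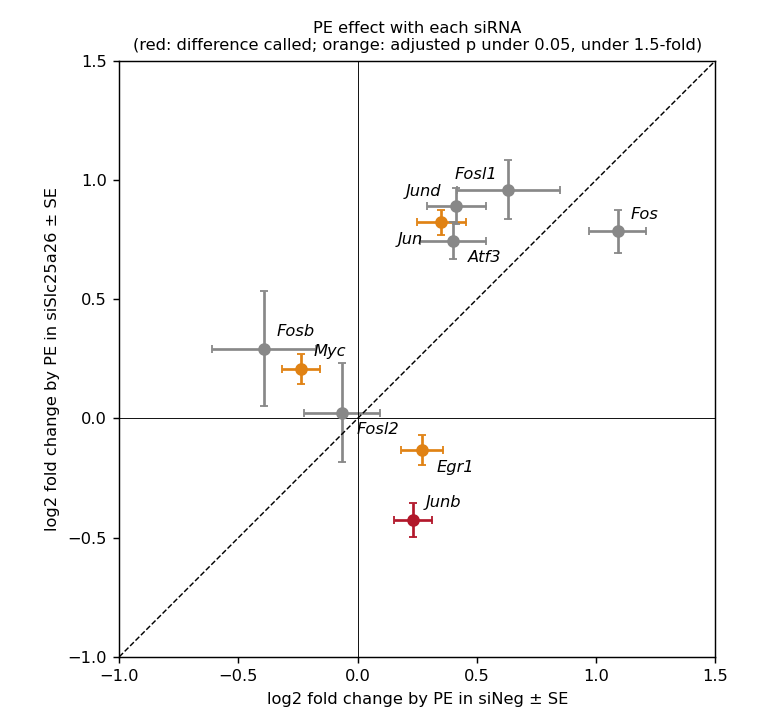
The log2 fold change by PE in siNeg is plotted against that in siSlc25a26, with standard errors, and the dashed line marks equal effects; the 2 axes share no library. Junb (red) differs by -0.68 and lies farthest below the line of the genes that passed, with Egr1 also below it and Jun and Myc above it (orange).

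Partners and neighbours of the 10 genes in the pathway were read from fixed lists, whose counts stand beside the shares of all genes called higher and lower. Of 18 other AP-1 and small Maf genes, 15 were tested by PE in siNeg, where 4 were called higher and none lower, beside 12.4% and 8.24% of all genes. By PE in siSlc25a26, 17 were tested, with 5 higher and 4 lower, beside 10.1% and 10.4%. Creb5, an ATF-type partner of Jun, rose in both, from 6.95 ± 0.415 to 15.4 ± 5.21 CPM with siNeg (log2 1.13, edgeR adjusted p = 0.00501) and from 6.59 ± 0.316 to 47.6 ± 6.65 CPM with siSlc25a26 (2.86, adjusted p = 2.57e-07). By the siRNA, 1 of 16 was called higher and 1 lower without PE, near the 8.92% and 7.2% of all genes, and 4 and 2 under PE, beside 7.71% and 8.1%. Batf2, an interferon-inducible AP-1 partner, went from 0.0498 CPM in siNeg, under the floor, to 5.70 ± 0.919 CPM in siSlc25a26, and from 0.0791 CPM in siNeg.PE, also under the floor, to 3.49 ± 0.428 CPM in those labelled siSlc25a26.PE. It fell by 0.70 by PE in siSlc25a26 (edgeR adjusted p = 0.00613). Maf, a large Maf factor, fell by 1.60 by the siRNA under PE (edgeR adjusted p = 2.40e-05). The medians of these genes were 0.29, 0.15, 0.14 and 0.12 in the 4 comparisons, in the order PE in siNeg, PE in siSlc25a26, siRNA without PE and siRNA under PE.

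The other immediate early genes numbered 32 in each test. PE called 10 of them higher and 2 lower in siNeg (median 0.16), beside 12.4% and 8.24% of all genes, and 11 higher and 4 lower in siSlc25a26 (median 0.43), beside 10.1% and 10.4%. The siRNA called 4 higher and 2 lower without PE (median 0.064), beside 8.92% and 7.2%, and 10 higher and 3 lower under PE (median 0.32), beside 7.71% and 8.1%. Nr4a3, an orphan nuclear receptor, rose by PE from 1.77 ± 0.189 to 8.01 ± 0.667 CPM with siNeg (log2 2.16, edgeR adjusted p = 2.51e-05) and from 1.06 ± 0.186 to 10.8 ± 0.279 CPM with siSlc25a26 (3.35, adjusted p = 3.86e-07). It fell by 0.76 by the siRNA without PE (edgeR adjusted p = 0.0185). Trib1, a pseudokinase that binds the ligase COP1, fell by PE in both, by 0.96 (edgeR adjusted p = 0.000101) and by 1.04 (adjusted p = 1.55e-05). The kinase gene Sgk1 rose by the siRNA without PE, from 23.7 ± 1.35 to 57.4 ± 1.56 CPM (log2 1.25, edgeR adjusted p = 6.96e-07). Under PE, the matricellular gene Ctgf rose by 1.29 (edgeR adjusted p = 0.000885), and Egr2, a relative of Egr1, fell by 0.90 (adjusted p = 0.000378).

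Upstream of the 10 genes, the list of SRF, its ternary complex factors and the MAP kinases had 34 tested genes, or 33 for the siRNA without PE. Calls were 3 higher and 1 lower by PE in siNeg, 4 and 2 by PE in siSlc25a26, 2 and 1 by the siRNA without PE, and 1 and 3 under PE, with medians of -0.037, -0.098, 0.043 and 0.069. The shares of all genes called higher and lower were 12.4% and 8.24%, 10.1% and 10.4%, 8.92% and 7.2%, and 7.71% and 8.1% in that order, so these counts are no more than near the background. Srf itself rose by PE in siSlc25a26 from 206 ± 6.93 to 323 ± 19.5 CPM (log2 0.66, edgeR adjusted p = 1.82e-05). Map2k1, which encodes the ERK kinase MEK1, rose by the siRNA by 0.79 without PE (edgeR adjusted p = 2.92e-06) and by 0.63 under PE (adjusted p = 4.27e-05). Map2k6, a kinase of p38, fell in all 4 comparisons, by 0.93 by PE in siNeg (edgeR adjusted p = 0.00166), by 1.52 by PE in siSlc25a26 (adjusted p = 0.000402), by 0.91 by the siRNA without PE (adjusted p = 0.00242) and by 1.51 under PE (adjusted p = 0.000367). Rps6ka3, an ERK-activated kinase, rose by PE in siNeg by 0.87 (edgeR adjusted p = 0.0113).

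Around Myc, 12 network genes (Max, its partners and regulators) were tested in each comparison. PE called none higher in either siRNA, 1 lower in siNeg and 3 lower in siSlc25a26 (medians -0.091 and -0.30), beside 8.24% and 10.4% of all genes called lower. The siRNA called 1 higher and 1 lower without PE (median 0.034), beside 8.92% and 7.2%, and 2 lower under PE (median -0.091), beside 8.1%. With 12 genes, counts this small are not read as a result about the list. Mnt, Mxd1 and Mxd4 encode partners of Max that oppose Myc. Mnt fell by PE in siNeg from 41.6 ± 0.317 to 27.7 ± 0.338 CPM (log2 -0.60, edgeR adjusted p = 0.000125), and Mxd1 by PE in siSlc25a26 from 44.4 ± 1.40 to 20.1 ± 1.32 CPM (-1.13, adjusted p = 2.23e-06). Mxd4 fell by the siRNA by 0.66 without PE (edgeR adjusted p = 6.98e-06) and by 0.83 under PE (adjusted p = 2.37e-05). Fbxw7, which marks Myc and Jun for degradation, rose by 0.64 without PE (edgeR adjusted p = 0.000613).

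**Figure D5:**
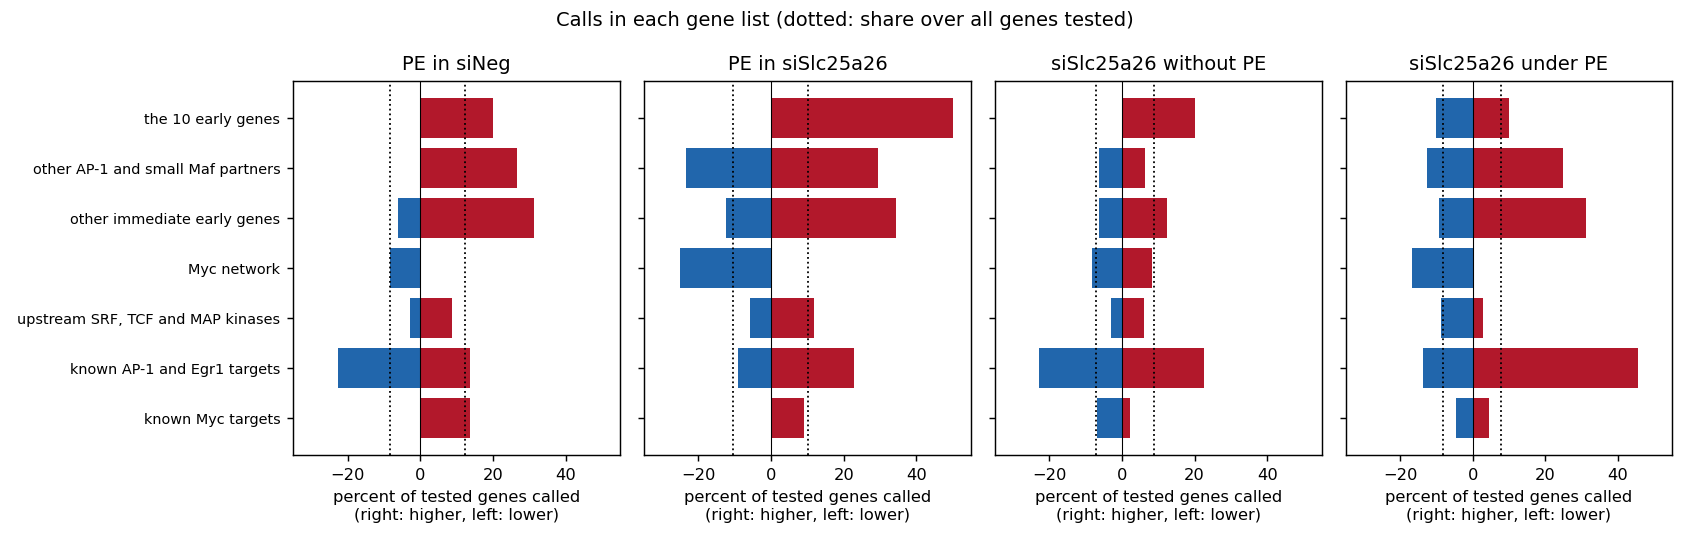
Bars show the percent of tested genes called higher (right) and lower (left) in the 10 early genes and in 6 fixed lists, for 4 comparisons, and dotted lines the percent over all genes. Among the 10 genes, 5 of 10 were called higher by PE in siSlc25a26, where the line over all genes stands at 10.1%.

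The genes most like each of the 10 were found by Pearson's r of log2 CPM over all 12 libraries among 11960 genes. These r values mostly follow the differences between the 4 groups and carry no test. For Fos they were Nsg2 (0.98) and Ramp3 (0.97), for Fosl1 Pgam1 (0.97) and Ror2 (0.96), and for Jun Gadd45g (0.99) and Synpo2l (0.99). Junb was most like Clu (0.95) and Nuak2 (0.91), and Jund most like Pcbp4 (0.99) and Jun (0.98). Jun and Jund were thus each other's closest match within the 10 genes, while Egr1 and Myc were the least alike (-0.85). Egr1 lay closest to the cell cycle genes Cdk1 (0.96) and Ccnf (0.96), and Id3 (0.99) was among the genes closest to Atf3. For Myc the nearest were Odc1 (0.92), a polyamine enzyme gene, and Cipc (0.91). Fosb and Fosl2, which gave no call, were nearest to Heatr5a (0.95) with Kctd11 (0.84), and to Nfatc1 (0.90) with Fermt3 (0.88).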

How the data were processed

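Total RNA of 12 NRVM libraries was sequenced. A deposited table holds the authors' estimated counts for each gene; 20.8% to 21.9% of a library's values are not whole. The other holds FPKM, which the authors scaled to depth and gene length. The submitters' processing notes name HISAT, Bowtie2 and the build Rnor_6.0; the counting program, annotation and strandedness are not given in the sources used here. The design assumed plain counts, and the estimated counts were rounded. Groups come from the labels. The study's paper names another siRNA target and other times, and the labels were followed. No batch is named. Replicates were compared, and no pair agreed within sampling noise (lowest chi-square per gene 5.34).

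Levels are TMM-normalized CPM. Tests used edgeR 4.0.16 (R 4.3.3, filterByExpr, TMM, quasi-likelihood F test) on the 6 libraries compared, or on all 12 for the difference between PE effects. SE is the log2 change divided by the square root of F. An exact permutation test of 3 against 3 cannot go below p = 0.1, so none was used for calls. Alternatives were DESeq2 1.42.0, limma 3.58.1 (voom, and log2(FPKM + 1) or log2(FPKM + 0.1)), DESeq2 size factors, no filter, at least 10 counts in every library, all 12 libraries, a replicate block, no fold threshold and each library left out. The fits were tested on simulated counts.

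The 10 genes and the lists were chosen with earlier results of these data known. Named genes are the 10 in every comparison, from each pathway list the called gene with the largest rise and the one with the largest fall per comparison (mean of at least 1 CPM), and the 2 genes most correlated with each of the 10. Nap1l5 was added after its values were seen. A few genes that this rule names are not reported here. Promoters are from RefSeq GRCr8.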

Additional observations from a re-analysis of the deposited data

Results flagged for a closer look

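Of the 10 genes, 4 were picked out because the effect of PE differed between the siRNAs, by the edgeR test of that difference over 12 libraries. The effect in siSlc25a26 minus that in siNeg, on the log2 scale, was 0.45 for Jun (adjusted p = 0.0426), -0.68 for Junb (0.00272), -0.43 for Egr1 (0.0309) and 0.42 for Myc (0.0198). For Junb, Egr1 and Myc the means moved in opposite directions with the siRNAs, and for Jun in the same direction. The move of Egr1 by PE in siSlc25a26 was -0.13 and did not pass (edgeR adjusted p = 0.106). That of Myc was 0.028 to 0.24 over the alternative fits, with an adjusted p of up to 0.728. All 4 rest on the libraries labelled siSlc25a26.PE, whose Slc25a26 level of 102 ± 3.69 CPM (SD, n = 3) was like that of siNeg.PE (102 ± 14.1 CPM), and no value can be had without them. No test for a single library far from its group was run, since groups of 3 are too small for it; siNeg replicate 1 (Fosl1) and siNeg.PE replicate 3 (Jun, Jund and Atf3) are described with their genes.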

How the results depend on the processing

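Of 170 counts of called members over the alternatives, 148 stayed within 1.5 times the main count and 22 moved. With no fold threshold, the higher and lower calls were 7 and 1 by PE in siNeg, 1 lower by the siRNA without PE, 5 higher under PE, 1 lower by PE in siSlc25a26, and 2 and 2 for the difference. On log2(FPKM + 1) they were 1 higher by PE in siNeg, and 2 higher and 1 lower by PE in siSlc25a26; on log2(FPKM + 0.1) the last was also 1 lower. By the siRNA without PE, DESeq2 and DESeq2 size factors each gave 1 higher. Without 1 library, the higher calls ranged from 1 to 2 in PE in siNeg, in the siRNA without PE and in the siRNA under PE, where Fosl1 was added (log2 0.60) without siNeg.PE replicate 1. The lower call of the difference (Junb) stayed at 1 in all 12 such fits.

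Of 800 single values, 23 changed sign, all of them uncalled. Fosl2 by PE in siSlc25a26 was -0.12 and -0.16 on log2(FPKM + 1) and log2(FPKM + 0.1) and -0.18 to 0.16 without 1 library, its difference between PE effects was -0.028 and -0.043 on those scales and -0.14 to 0.22, and its change by PE in siNeg -0.17 to 0.048. Jund by the siRNA without PE was 0.038 and 0.039 on the FPKM scales, 0.0045 with all 12 libraries fitted and -0.077 to 0.038 without 1 library. Myc there was -0.0049 with DESeq2 and with its size factors, and -0.043 to 0.043 without 1 library. Junb under PE was -0.13 to 0.0042 without 1 library. The cause was not tested.

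Counts over all genes moved by over 1.5 times with no fold threshold, where the calls higher and lower were 3456 and 3329 by PE in siNeg, 3634 and 3585 by PE in siSlc25a26, 3223 and 2998 by the siRNA without PE, and 2744 and 2744 under PE. On log2(FPKM + 1), calls were 857 higher and 733 lower by PE in siNeg (1708 and 1130 in the main test), 564 higher by PE in siSlc25a26 (1389), 452 lower by the siRNA without PE (996), 623 higher under PE (1054) and 164 higher for the difference (305). On log2(FPKM + 0.1), PE in siSlc25a26 gave 824 higher and 2214 lower (1389 and 1436), and the difference 768 lower (471). The share of calls that were higher by PE in siSlc25a26 was 49.2% in the main test and 27.4% and 27.1% on those scales, where the median of all genes was -0.125 and -0.171. For the difference it was 39.3%, 23.4% and 22.1%, with medians of -0.109 and -0.143. Without siNeg.PE replicate 3, the difference gave 301 lower.

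Same-numbered libraries did not deviate together in every pair (correlations of -0.091 to 0.217 over the 4 comparisons), so the replicate numbers were not taken as pairs. They were all positive, however, by PE in siNeg (0.0094 to 0.217) and by the siRNA under PE (0.025 to 0.209). The means for libraries of other numbers there were -0.062 and -0.067. An effect shared by replicate number in those comparisons was allowed for only in the block fit. With the replicate block no member call changed, and the difference for Junb was -0.69. Depth limits Fosb, Fosl1 and Fosl2, which had under 7 CPM in every library.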

Other observations

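Of 22 known targets of AP-1 and Egr1 tested, 3 were called higher and 5 lower by PE in siNeg (median log2 -0.26), beside 12.4% and 8.24% of all genes. PE in siSlc25a26 gave 5 and 2 (-0.10), beside 10.1% and 10.4%. The siRNA gave 5 and 5 without PE (0.13), beside 8.92% and 7.2%, and 10 and 3 under PE (0.53), beside 7.71% and 8.1%. Ccl2, a monocyte chemokine, had the largest rise by the siRNA, from 28.0 ± 2.27 to 327 ± 13.4 CPM without PE (SD, n = 3; edgeR adjusted p = 1.26e-09) and from 26.1 ± 1.94 to 220 ± 20.6 CPM under PE (adjusted p = 2.30e-08). Spp1, which encodes osteopontin, fell in the same comparisons (log2 -2.21 and -1.88). By PE, Timp1, a metalloproteinase inhibitor, rose by 1.33 in siNeg (edgeR adjusted p = 2.81e-05), where Mmp9 fell by 1.06 (adjusted p = 0.0174). Hbegf, a growth factor ligand of the EGF receptor, rose by 2.20 by PE in siSlc25a26 (edgeR adjusted p = 2.83e-06), and Hmox1, the inducible heme oxygenase, fell by 0.86 (adjusted p = 0.000366).

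Among 44 known Myc targets, 6 were called higher and none lower by PE in siNeg, and 4 higher and none lower by PE in siSlc25a26, where the higher shares are near the 12.4% and 10.1% of all genes and 8.24% and 10.4% of all genes were lower. On adjusted p alone, 32 of 44 were higher and 4 lower by PE in siSlc25a26, beside 26.4% and 26% of all genes, and the median was 0.27. In siNeg these were 16 and 9, beside 25.2% and 24.3% of all genes, with a median of 0.076. Tfrc, the transferrin receptor gene, rose in both, by 1.82 (edgeR adjusted p = 9.69e-06) and by 1.76 (adjusted p = 1.39e-05). The siRNA called 1 higher and 3 lower without PE (median -0.050; 8.92% and 7.2% of all genes), with Wdr43 up by 0.63 and Nme2 down (-0.62), and 2 higher and 2 lower under PE (median 0.15; 7.71% and 8.1%), with Rrp12 up by 1.00 and Mcm5 down (-0.61).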
